A study of Mus musculus with 6 samples.

Results

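Amino acid transporters were taken as the genes whose symbol begins with Slc1a, Slc3a, Slc7a, Slc36a, Slc38a or Slc43a followed by a number, which gave 37 of the 21604 gene symbols in the count table. The rule uses the symbols and no measured value. The match also took in 3 genes whose symbol ends in os: Slc36a1os and Slc36a3os, annotated as long non-coding RNAs, and Slc7a6os, which codes for a protein that is no transporter. The other 34 are members of solute carrier families that move amino acids across the plasma membrane or the membranes of organelles. RNA was sequenced from RAW 264.7 cells, a virus-transformed mouse macrophage-like line whose genotype is labelled wild type. In the first group, of 3 libraries, cells received 100 ng/mL of lipopolysaccharide (LPS), the bacterial endotoxin that macrophages sense through TLR4, for 24 h. In the second, also of 3 libraries, the same LPS and 2 mg/mL of PE-CUR were given together for 24 h, and the series title speaks of Pickering emulsions loaded with the plant polyphenol curcumin. All 6 libraries carry LPS, and the labels used here name no untreated cells, no empty emulsion and no free curcumin, so the emulsion, its load and their combination cannot be told apart. The line is a single transformed line grown in culture, and the labels do not say whether replicates are separate cultures, so the p-values rest on a spread between libraries that may be technical.

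Cells take up essential amino acids and cystine largely through heteromeric transporters, in which the glycoprotein encoded by Slc3a2 (CD98, or 4F2 heavy chain) is joined by a disulfide bond to a light chain of the Slc7 family that does the transport. Most of these pairs are exchangers, so uptake of one amino acid is paid for by export of another that sodium-coupled carriers of the Slc1 and Slc38 families have brought in. Carriers of the Slc36 family and some of the Slc38 family sit in the lysosome, where they release or sense amino acids for the growth kinase complex mTORC1. In macrophages cystine uptake feeds glutathione, arginine uptake feeds nitric oxide and polyamines, and glutamine feeds energy metabolism. Several of these genes are known targets of ATF4, the transcription factor of the integrated stress response, or of NRF2, the factor of the antioxidant response.

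Total counts were 28530750 to 35276533 per library, of which the 34 transporter genes held 0.359% to 0.365% in the LPS libraries and 0.302% to 0.320% in the libraries with PE-CUR. Libraries correlated at 0.985 or more within a group and at 0.955 or less between groups. All 8 macrophage markers looked up were detected, with summed levels, in counts scaled to library size (CPM), of 10578 to 11242 CPM in LPS and 8765 to 9848 CPM in LPS plus PE-CUR. Lyz2 was the largest part of that sum, and single markers went in both directions. Adgre1 was lower with PE-CUR (78.0 to 92.8 CPM in LPS, 24.0 to 31.1 CPM with PE-CUR), as were Itgam and Lyz2. Csf1r (848 to 942 and 1075 to 1324 CPM) and Cd14 (1131 to 1276 and 1480 to 1612 CPM) were higher. For Cd68, Ptprc and Spi1 the groups overlapped. Transcripts of hepatocytes, which neither label names, were found in all 3 LPS libraries and in replicate 3 of LPS plus PE-CUR, with 1788 to 2408 summed counts of 10 of 10 markers. Replicates 1 and 2 of LPS plus PE-CUR held 6 and 2 such counts, of which albumin (Alb) had 1 and 0. Other foreign markers were rarer. Summed erythroid markers had 34, 74 and 15 counts in LPS and 6, 0 and 60 with PE-CUR. Summed kidney tubule markers had 15, 29 and 25 counts in LPS and 5, 7 and 0 with PE-CUR. The pancreatic markers Cela2a and Ctrb1 had 7 and 4 counts in LPS replicate 3 and 0 in the other libraries. Replicate 2 of LPS plus PE-CUR also stood apart in the summed fibroblast markers, with 426 counts against 8 to 76 in the other 5 libraries. Nearly all of these were of collagen genes, Col1a1 (180), Col1a2 (187) and Col3a1 (57). The fibroblast markers Dcn and Pdgfra were not raised in that library, with 0 and 2 counts. Results that depend on these libraries are given with and without them where a call changes.

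Of the 37 genes, 26 had enough counts to be tested and 11 did not, with at most 10 counts in any library. In LPS plus PE-CUR 5 of the 26 were higher and 13 lower, and 8 did not pass the test (edgeR quasi-likelihood test, Benjamini-Hochberg adjusted over all 13014 genes tested, threshold 0.05). Differences were common throughout the transcriptome: 63.4% of all genes tested were called, 30.8% higher and 32.7% lower. The share of transporters called, 69.2%, is thus near the background, and so it is not a result about these genes. Their split was 19.2% higher and 50% lower, with a median log2 fold change of -0.44 against -0.03 over all genes tested. Without the os genes 4 were higher and 13 lower of 25, with a median of -0.45. No transporter rose by 2-fold or more, where 6.37% of all genes did, and 5 of 26 (19.2%) fell by at least that much, where 11.5% of all genes did. Of those 5, Slc1a1 and Slc1a7 passed the filter on low counts only through the LPS libraries, so they could only come out lower. The other 3 are Slc7a8, Slc7a11 and Slc43a2, and the 19.2% is thus not read as a result about these genes. For 22 of the 26 (84.6%) the groups did not overlap, against 69.0% of all genes tested. Slc1a1 and Slc1a7 are among these 22, among the 13 lower genes and in both medians of the transporters, which limits these comparisons too. Because RNA was taken from whole cultures, fewer cells with a transcript and less of it per cell cannot be told apart.

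**Figure D1:**
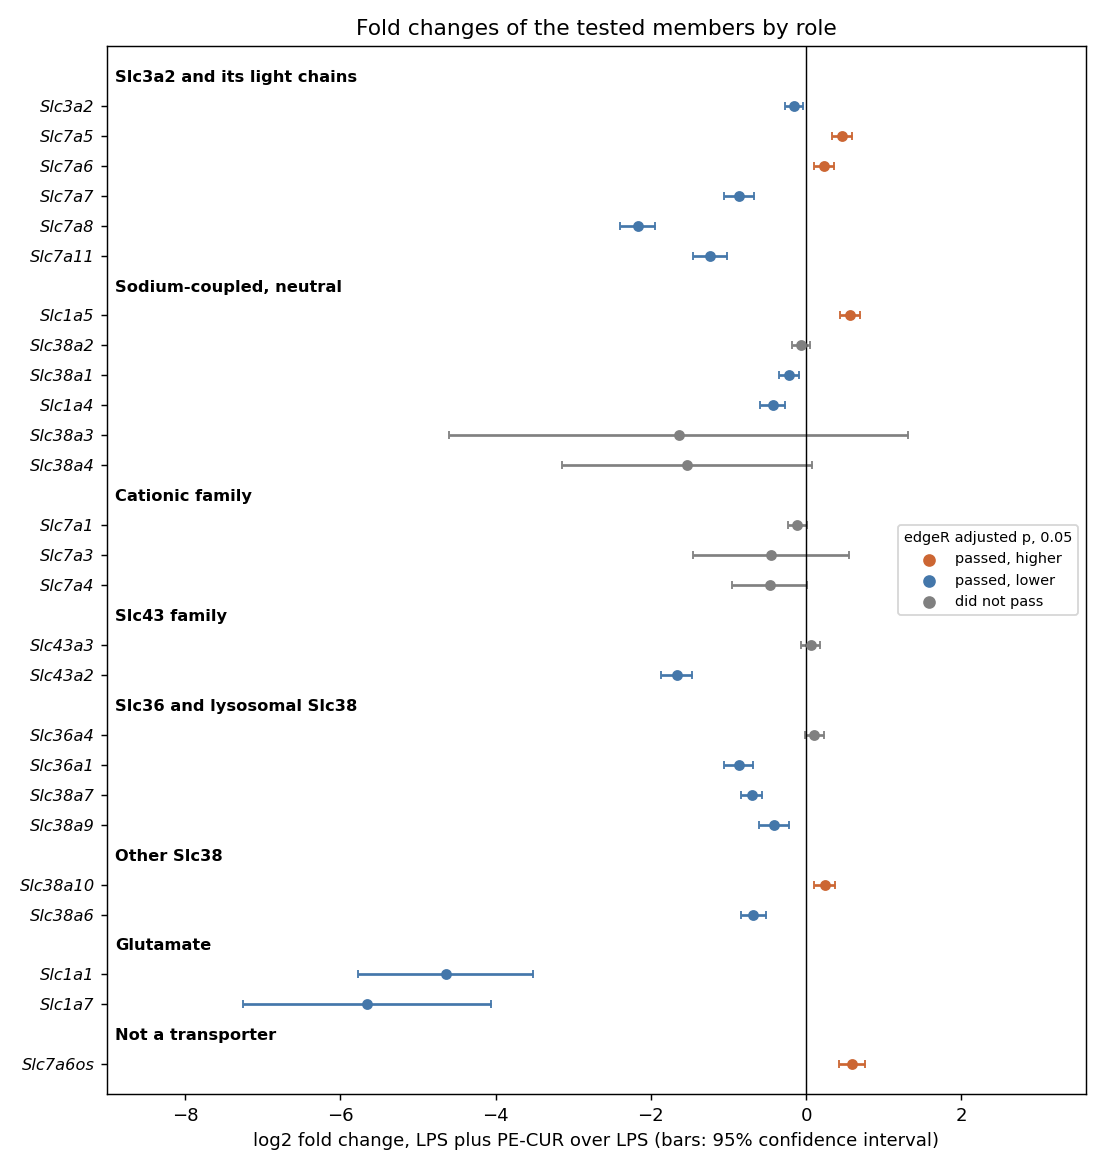
Log2 fold change of LPS plus PE-CUR over LPS for the 26 tested genes, grouped by role, with 95% confidence intervals from the edgeR fit (horizontal axis, log2 scale). Light chains of Slc3a2 lie on both sides of 0, from -2.17 for Slc7a8 to 0.46 for Slc7a5, whereas the points of Slc1a1 and Slc1a7, genes of few counts, lie furthest to the left and their position depends on how the fit treats counts near 0.

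The heavy chain and its light chains moved in different directions. Cystine carrier Slc7a11 and the neutral and cationic carriers Slc7a8 and Slc7a7 fell, Slc7a5 and Slc7a6 rose, and the heavy chain differed by little. Slc3a2 (chr19:8706882-8723369; all coordinates are from RefSeq on GRCm38.p6, counted from 1) stood at 269, 288 and 282 CPM in LPS replicates 1 to 3 and at 251, 251 and 254 CPM in LPS plus PE-CUR. Every library with PE-CUR was below every LPS library, but the gap was narrow, and the log2 fold change was -0.15 (SE 0.05, adjusted p = 0.0262). The call was lost in 11 of 16 alternative analyses, among them DESeq2 (adjusted p = 0.0648) and all 6 leave-one-out fits, each without a single library (log2 fold change -0.14 to -0.09, adjusted p = 0.0612 to 0.223).

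Slc7a11 (xCT, chr3:50364936-50499087) imports cystine in exchange for glutamate and limits glutathione synthesis in many cells. Its levels were 489, 440.5 and 488 CPM in LPS and 171, 224 and 209 CPM in LPS plus PE-CUR. The LPS libraries all stood far above the others, with means of 473 ± 27.8 and 201 ± 27.3 CPM (SD, n = 3), a 2.35-fold fall (log2 fold change -1.23, SE 0.10, adjusted p = 5.84e-06). The 250 bases before its start in RefSeq are shown because letters of the composite element that ATF4 binds with C/EBP partners, TGATGNAA on either strand, are present in a pair of copies of opposite orientation, 66 to 59 and 47 to 40 bases before the start. The capitals mark these copies, in the window chr3:50443614-50443863, minus strand (GRCm38.p6, RefSeq), written 5′ to 3′.
Slc7a11: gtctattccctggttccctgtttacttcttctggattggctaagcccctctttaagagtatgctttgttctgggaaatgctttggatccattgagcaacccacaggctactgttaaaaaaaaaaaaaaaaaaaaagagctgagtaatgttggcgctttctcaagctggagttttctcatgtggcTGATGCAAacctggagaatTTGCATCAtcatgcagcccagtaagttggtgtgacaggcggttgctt
These letters occur in 3.45% of the 32851 windows of that length before annotated mouse starts. RefSeq windows were matched for 27 of the 37 genes, 19 of them tested, and among those 19, of which 12 were lower and 3 higher, the letters occurred in Slc7a11 and Slc7a7, both lower. Some genes have several windows and so more chances of a match. A match is a description of the sequence and shows no binding in these cells.

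Slc7a8 (LAT2, chr14:54722215-54781886), an exchanger of neutral amino acids, had the largest fall among the 16 transporters and os genes called with a mean of at least 5 CPM. It measured 27.1, 29.7 and 33.6 CPM in LPS and 6.61, 6.51 and 7.004 CPM in LPS plus PE-CUR. The PE-CUR libraries lay close together and far under the lowest LPS library, a 4.50-fold difference (log2 fold change -2.17, SE 0.10, adjusted p = 7.65e-08). Slc7a7 (y+LAT1, chr14:54369442-54420068), which exports cationic amino acids in exchange for neutral ones and is mutated in lysinuric protein intolerance, read 27.5, 27.0 and 30.7 CPM in LPS against 15.4, 16.7 and 14.6 CPM. Again no library of one group reached the other, and the fall was 1.82-fold (log2 fold change -0.87, SE 0.09, adjusted p = 8.39e-06). Exons of Slc7a7 share 232 bases with Oxa1l on the opposite strand, so some reads could belong to either gene. The counts of Oxa1l were 1385 to 1712 in LPS and 1636 to 2173 with PE-CUR, and the part of shared reads in the Slc7a7 values was not tested.

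Slc7a5 (LAT1, chr8:121881146-121907686), the main importer of leucine and other large neutral amino acids in activated cells, went the other way. Its levels were 176, 164 and 158 CPM in LPS and 229, 220.4 and 234 CPM in LPS plus PE-CUR. All PE-CUR libraries exceeded all LPS libraries, with a 1.37-fold rise (log2 fold change 0.46, SE 0.06, adjusted p = 4.97e-05). Slc7a6 (y+LAT2, chr8:106168219-106198714), the close relative of Slc7a7, had 90.2, 84.8 and 83.9 CPM in LPS and 104, 99.5 and 99.5 CPM with PE-CUR. The groups did not overlap, and the rise was 1.17-fold (log2 fold change 0.23, adjusted p = 0.0054). That call was lost in the 3 limma fits on FPKM (log2 fold change 0.15 to 0.17, adjusted p = 0.0691 to 0.103).

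**Figure D2:**
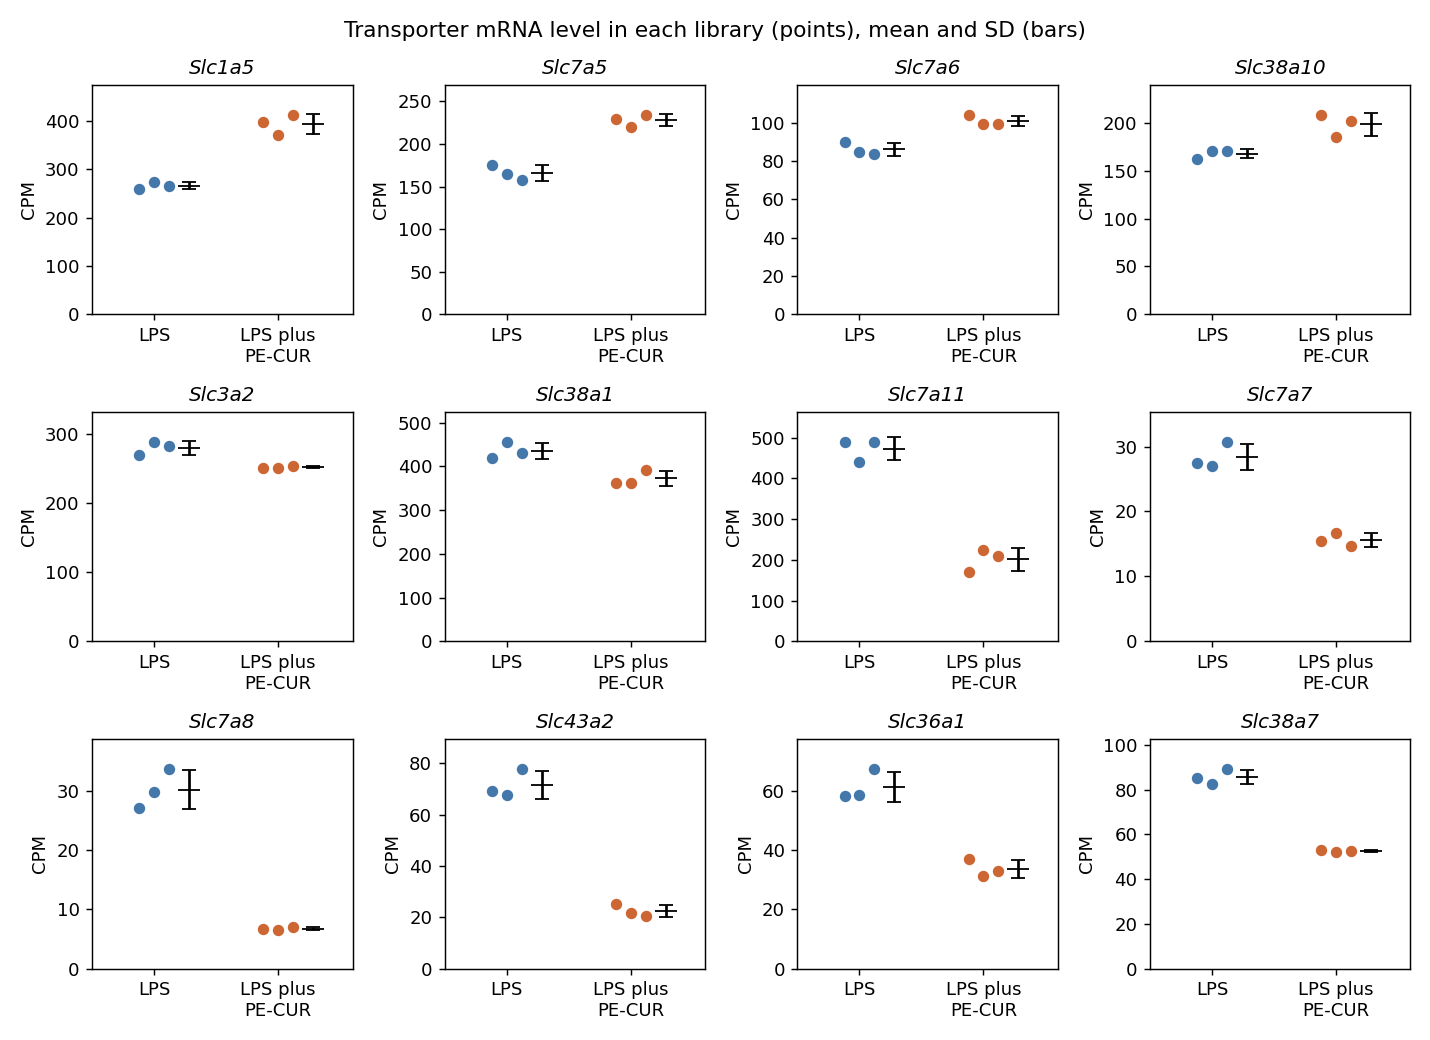
Normalised level (CPM, vertical axis of each panel) of 12 transporter genes in each of the 6 libraries, 3 of LPS and 3 of LPS plus PE-CUR, with the group mean and SD as black bars. Slc7a11 drops from 440.5 to 489 CPM in LPS to 171 to 224 CPM, whereas Slc1a5 climbs from 259 to 275 CPM to 372 to 413 CPM.

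Per unit of length, Slc7a11 and Slc7a5 were close to each other in LPS and apart with PE-CUR. The ratio of Slc7a11 to Slc7a5, in FPKM (fragments scaled to gene length and library size), was 1.04, 1.004 and 1.16 in LPS and 0.279, 0.380 and 0.334 in LPS plus PE-CUR. Summed over the 5 light chains, the level was 119 ± 4.63 FPKM in LPS and 97.7 ± 1.21 FPKM with PE-CUR (SD, n = 3). Slc7a11 made up 43.2% ± 1.33 of that sum in LPS and 21.5% ± 2.54 with PE-CUR, and Slc7a5 made up 40.5% ± 1.81 and 65.2% ± 2.32. Slc7a8 contributed 3.33% ± 0.409 and 0.866% ± 0.0261. The groups did not overlap in any of these 3 shares. With groups of 3, an exact two-sided permutation test cannot give a p below 0.1, so the ratios and shares are given as descriptions.

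The level of the heavy chain against its light chains depends on the gene length used. The length behind the deposited Slc3a2 values is 9995 bases, 5.49 times the 1819 bases of the longest principal transcript in GENCODE M21. With the deposited length the summed light chains stood at 4.17 ± 0.301 times Slc3a2 in LPS and 3.95 ± 0.0822 times with PE-CUR. With the principal transcript lengths, an alternative chosen after seeing the data, these ratios were 0.920 ± 0.0631 and 0.880 ± 0.0112. On that scale Slc7a11 made up 36.3% ± 1.13 and 17.8% ± 2.21 of the light chains, and Slc7a5 33.4% ± 1.53 and 53.1% ± 1.68. Both scales use the same counts, so the fall of Slc7a11 relative to Slc7a5 had to recur and is no further support. Lengths for Slc7a5, Slc7a11, Slc1a5 and Slc38a2 differ by less than 2% between the scales, whereas that behind Slc7a6 is 3.44 times the principal transcript. Fold changes between groups do not depend on the length.

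**Figure D3:**
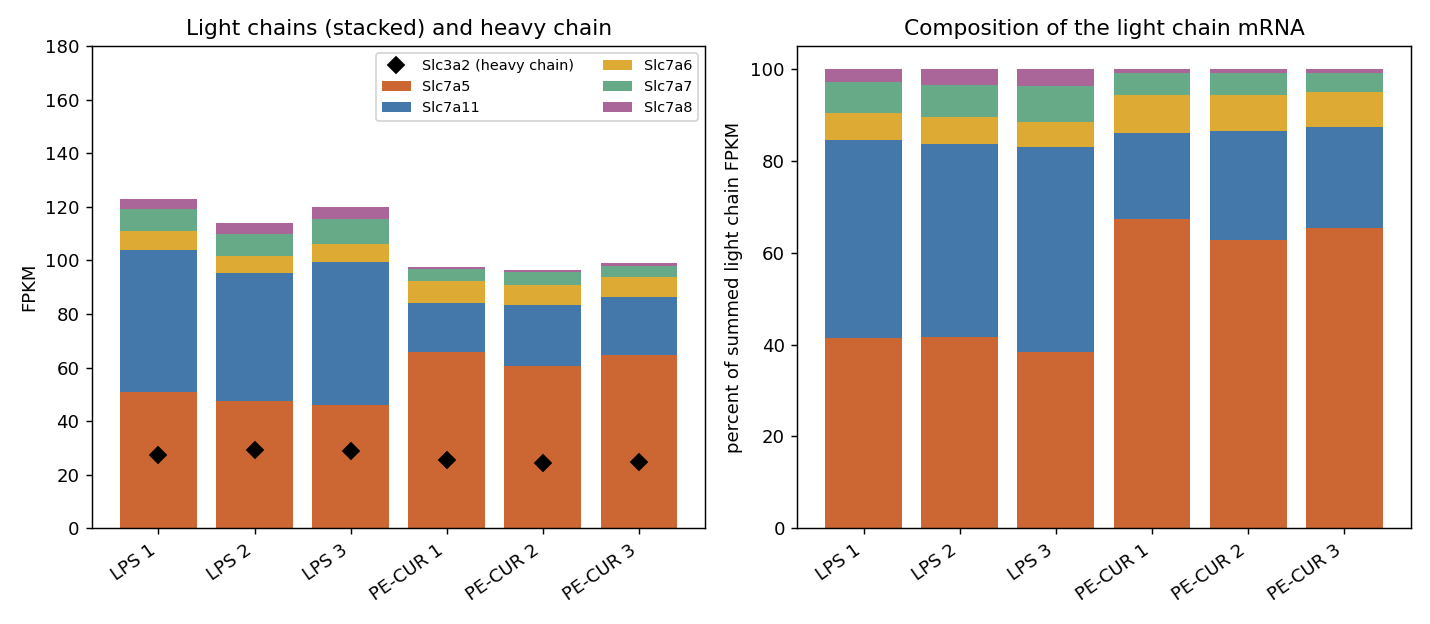
Deposited FPKM of the 5 light chains stacked for each library (vertical axis, FPKM), with Slc3a2 as diamonds, and the light chains as percent of their sum. "PE-CUR" on the axis means LPS plus PE-CUR: in those libraries Slc7a5 takes 62.7% to 67.3% of the sum against 38.4% to 41.7% in LPS, and the diamonds rest on the longer deposited length of Slc3a2.

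Among the sodium-coupled carriers of neutral amino acids, Slc1a5 rose, Slc1a4 and Slc38a1 fell, and 3 did not pass. Slc1a5 (ASCT2, chr7:16781334-16798274), the glutamine exchanger, measured 259, 275 and 266 CPM in LPS and 399, 372 and 413 CPM in LPS plus PE-CUR. Its lowest PE-CUR library was well above its highest LPS library, and the rise was 1.48-fold (log2 fold change 0.57, SE 0.06, adjusted p = 8.97e-06). Slc1a4 (ASCT1, chr11:20302180-20332713), which carries alanine, serine and cysteine, went from 43.4, 41.3 and 44.9 CPM to 34.2, 31.3 and 30.7 CPM. Each PE-CUR library was below each LPS library (log2 fold change -0.43, SE 0.07, adjusted p = 0.000362). Thus the close relatives Slc1a5 and Slc1a4 were called in opposite directions.

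Slc38a2 (SNAT2, chr15:96687392-96699728), the carrier that many cells induce when amino acids are short, had the highest FPKM of the transporters in LPS. Per kilobase of principal transcript it stood at 150.2 CPM there and Slc3a2 at 157 CPM, so the first rank turns on the length used. It gave 699.5, 689.8 and 671 CPM in LPS and 659, 644 and 670.0 CPM with PE-CUR. The groups did not overlap, though the highest PE-CUR library nearly met the lowest LPS library, and the difference did not pass the test (log2 fold change -0.06, 95% interval -0.18 to 0.05, adjusted p = 0.317). Slc38a1 (SNAT1, chr15:96571418-96643438), a glutamine carrier next to it on the chromosome, gave 419.7, 456 and 429.7 CPM in LPS and 362, 363 and 393 CPM with PE-CUR. All PE-CUR libraries were lower (log2 fold change -0.22, SE 0.06, adjusted p = 0.00594). That call was lost without LPS replicate 2 (-0.15, adjusted p = 0.0651), without LPS plus PE-CUR replicate 2 (-0.16, adjusted p = 0.0654) and when replicate 3 alone stood for the PE-CUR group (-0.09, adjusted p = 0.332).

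Slc1a5 and Slc38a2, the leading carriers by FPKM, were apart in LPS and level with PE-CUR. In LPS, Slc38a2 stood at 150 FPKM and Slc1a5 at 98.1 FPKM, and the libraries of these neighbours in the order did not overlap. In LPS plus PE-CUR they stood at 138 and 139.8 FPKM, and their libraries did overlap, with Slc38a2 still ahead in replicate 2. Slc1a5 over Slc38a2 was 0.624, 0.670 and 0.667 in LPS and 1.02, 0.972 and 1.04 with PE-CUR. Below them in LPS came Slc7a11, Slc38a1, Slc7a5 and Slc7a1, at 51.4 to 46.6 FPKM, whose neighbours in the order overlapped. With PE-CUR, Slc7a5 was the third at 63.7 FPKM, Slc7a1 and Slc38a1 followed at 41.4 and 41.2 FPKM with overlapping libraries, and Slc7a11 was the tenth at 20.97 FPKM. All of these ranks use the deposited lengths, on which Slc3a2 is the eighth in both groups.

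None of the 3 tested genes of the cationic family, which carry arginine and lysine where their transport is known, passed the test. Slc7a1 (CAT1, chr5:148327410-148399904) held 345, 336 and 330.8 CPM in LPS and 314, 296 and 324 CPM with PE-CUR. The groups did not overlap, with a log2 fold change of -0.12 (95% interval -0.24 to 0.01, adjusted p = 0.0888). It passed in 4 of 16 alternatives, for example with library size alone (-0.17, adjusted p = 0.0235). Slc7a4, an orphan of this family, was at 4.47 ± 0.465 and 3.21 ± 0.958 CPM (SD, n = 3) with overlapping groups (log2 fold change -0.47, adjusted p = 0.0799), and passed without LPS plus PE-CUR replicate 1 (-0.70, adjusted p = 0.00748) and with replicate 3 alone in that group (-0.83, adjusted p = 0.0168). Exons of Slc7a4 share 554 bases with P2rx6 on the opposite strand, which had 8 to 15 counts in LPS and 1 to 4 with PE-CUR. The part of shared reads in the Slc7a4 values was not tested. Slc7a3 (CAT3) had 10 to 18 counts in LPS and 7 to 15 with PE-CUR. Slc7a2 (CAT2), the arginine carrier that macrophages are known to induce on activation, had 4, 2 and 8 counts in LPS and 0, 0 and 5 with PE-CUR and was not tested. With so few counts its change could not be measured.

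In the Slc43 family the leucine and methionine carrier Slc43a2 (LAT4, chr11:75529915-75577575) fell. It measured 69.2, 67.5 and 77.8 CPM in LPS and 25.1, 21.8 and 20.7 CPM in LPS plus PE-CUR. No PE-CUR library came near the LPS libraries, and the fall was 3.18-fold (log2 fold change -1.67, SE 0.09, adjusted p = 1.43e-07). An antisense gene annotated over 922 of its exon bases, Gm45606, is not a row of the count table, so its reads cannot be told apart from those of Slc43a2 if strand was not used. Slc43a3, which moves purine nucleobases rather than amino acids, stood at 80.8 ± 0.692 and 84.1 ± 3.37 CPM (log2 fold change 0.06, 95% interval -0.07 to 0.19, adjusted p = 0.406). Large neutral amino acid carriers were thus called in both directions, with Slc7a8 and Slc43a2 lower and Slc7a5 higher. In FPKM, Slc43a2 over Slc7a5 was 0.161 ± 0.0197 in LPS and 0.0368 ± 0.00396 with PE-CUR.

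Among the Slc36 genes and the lysosomal Slc38 genes, 3 of 4 tested genes fell and none rose, where 32.7% of all genes tested were lower. Slc36a1 (PAT1, chr11:55204322-55236330), a proton-coupled exporter of small neutral amino acids from the lysosome, read 58.4, 58.6 and 67.4 CPM in LPS and 37.0, 31.3 and 32.9 CPM in LPS plus PE-CUR. The groups were clearly apart, with a 1.82-fold fall (log2 fold change -0.87, SE 0.09, adjusted p = 7.21e-06). Slc38a7 (SNAT7, chr8:95835920-95853577), which exports glutamine and asparagine from lysosomes, read 85.1, 82.5 and 89.1 CPM against 53.2, 52.3 and 52.4 CPM. Its PE-CUR libraries were nearly equal and all below LPS, a 1.63-fold fall (log2 fold change -0.70, SE 0.06, adjusted p = 2.29e-06). Slc38a9 (chr13:112656189-112738752), the arginine sensor of mTORC1 on the lysosome, went from 43.8, 40.8 and 45.1 CPM to 31.9, 36.1 and 29.1 CPM. Here too every PE-CUR library was lower (log2 fold change -0.42, SE 0.09, adjusted p = 0.00161). Exons of Slc38a9 share 182 bases with the antisense gene Gm47827, which is not a row of the count table, and the part of shared reads was not tested.

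Slc36a4 (PAT4), a carrier of proline and tryptophan, was the exception, at 146 ± 5.85 CPM in LPS and 157 ± 4.02 CPM with PE-CUR (log2 fold change 0.11, 95% interval -0.02 to 0.23, adjusted p = 0.117). Leaving out LPS replicate 1 made it a higher call (0.18, adjusted p = 0.0354). Slc36a1 over Slc36a4, in FPKM, was 0.459 ± 0.0487 in LPS and 0.233 ± 0.0245 with PE-CUR. The windows before Slc36a1 and Slc38a7 are printed because both genes fell and both windows hold the palindrome CACGTG, the letters of the E-box that TFEB and TFE3, regulators of lysosomal genes, can bind as can many other factors. Capitals mark the E-box, 31 to 26 bases before the start of Slc36a1 (chr11:55204090-55204339, plus strand) and 34 to 29 bases before that of Slc38a7 (chr8:95853492-95853741, minus strand), both from RefSeq on GRCm38.p6 and written 5′ to 3′.
Slc36a1: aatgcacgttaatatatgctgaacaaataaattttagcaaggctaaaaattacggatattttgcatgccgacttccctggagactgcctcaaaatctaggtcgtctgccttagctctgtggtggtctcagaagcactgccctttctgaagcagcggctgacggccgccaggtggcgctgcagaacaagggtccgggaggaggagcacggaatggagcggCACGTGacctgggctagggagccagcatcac
Slc38a7: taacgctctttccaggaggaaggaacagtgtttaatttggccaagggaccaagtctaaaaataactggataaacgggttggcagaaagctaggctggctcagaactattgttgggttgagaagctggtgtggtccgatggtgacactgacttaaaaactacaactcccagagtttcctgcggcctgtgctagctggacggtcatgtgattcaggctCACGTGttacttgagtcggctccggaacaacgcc
These letters were found in 6.02% of the 32851 windows. Among the 19 tested genes with a window they occurred in Slc36a1, Slc38a7 and Slc1a7, which are among the 12 of 19 that were lower. The letters of the antioxidant response element, TGACNNNGC on either strand, were found in 10.2% of all windows, and among the 19 in Slc38a2 and Slc7a1, which did not pass, and Slc7a6, which rose. They were not in the Slc7a11 window, which says only that these letters are not in those 250 bases.

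The remaining tested Slc38 genes were called in opposite directions. Slc38a10 (chr11:120103951-120151351) gave 163, 171 and 171 CPM in LPS and 209, 185 and 202 CPM in LPS plus PE-CUR. All PE-CUR libraries were higher (log2 fold change 0.24, SE 0.06, adjusted p = 0.00503), and the call was lost in the limma fit on log2(FPKM + 1) without a filter (0.18, adjusted p = 0.0949). Exons of Slc38a10 share 367 bases with Gm11769 on the opposite strand, which had 0 to 11 counts in LPS and 3 to 16 with PE-CUR. Slc38a6 (chr12:73286739-73361998) gave 51.4, 53.5 and 56.2 CPM against 31.0, 35.1 and 34.4 CPM, with no overlap and a 1.602-fold fall (log2 fold change -0.68, SE 0.07, adjusted p = 1.39e-05).

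The glutamate carriers were rare. Slc1a1 and Slc1a7 reached the test only through their LPS counts, so a lower level with PE-CUR was the only direction open to them. Slc1a1 (EAAC1, chr19:28835135-28913960), which takes up glutamate and cysteine, had 75, 61 and 88 counts in LPS and 5, 3 and 0 counts in LPS plus PE-CUR. The summed counts, 224 and 8, give a ratio of levels of 0.0371 (exact 95% interval 0.0158 to 0.0743, counting error only), and the test gave an adjusted p of 1.57e-05. Its exons share 2631 bases with 4430402I18Rik on the opposite strand, which also had fewer counts with PE-CUR, 8 to 14 against 30 to 51, so reads assigned to Slc1a1 could in part be of that gene. Slc1a7 (EAAT5), best known from the retina, had 21, 21 and 32 counts in LPS and 0, 1 and 0 with PE-CUR, which gives a ratio of 0.0140 (exact 95% interval 0.00035 to 0.0806) and an adjusted p of 4.84e-05. Replicate 3 of LPS plus PE-CUR, which holds hepatocyte transcripts, had 0 counts of both genes. Slc1a2, the main glutamate carrier of astrocytes, had 2 to 8 counts in LPS and 0 to 2 with PE-CUR.

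Slc38a3 and Slc38a4, system N and system A carriers that are abundant in liver, were high in the same libraries as the hepatocyte markers. Slc38a3 had 12, 17 and 32 counts in LPS and 0, 0 and 17 counts in LPS plus PE-CUR, and Slc38a4 had 9, 16 and 21 against 1, 2 and 11. The groups overlapped for both, since replicate 3 of LPS plus PE-CUR lay within the range of the LPS libraries, and neither passed (adjusted p = 0.283 and 0.0872). The summed hepatocyte markers took the same course, with 2315, 1788 and 2352 counts in LPS and 6, 2 and 2408 with PE-CUR, and albumin with 1600, 1081 and 1711 against 1, 0 and 1648. Without that replicate Slc38a3 and Slc38a4 passed as lower (log2 fold changes -7.32 and -3.20, adjusted p = 0.00086 and 0.00396). The PE-CUR counts left were then 0 and 0 for Slc38a3 and 1 and 2 for Slc38a4. In that fit both genes passed the filter on low counts only through the LPS libraries, so they could only come out lower. With that replicate alone in its group, they were at 0.10 and -0.13. The untested Slc7a2 also had its only PE-CUR counts in that library, and the part of hepatocyte transcripts in these 3 genes was not tested.

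**Figure D4:**
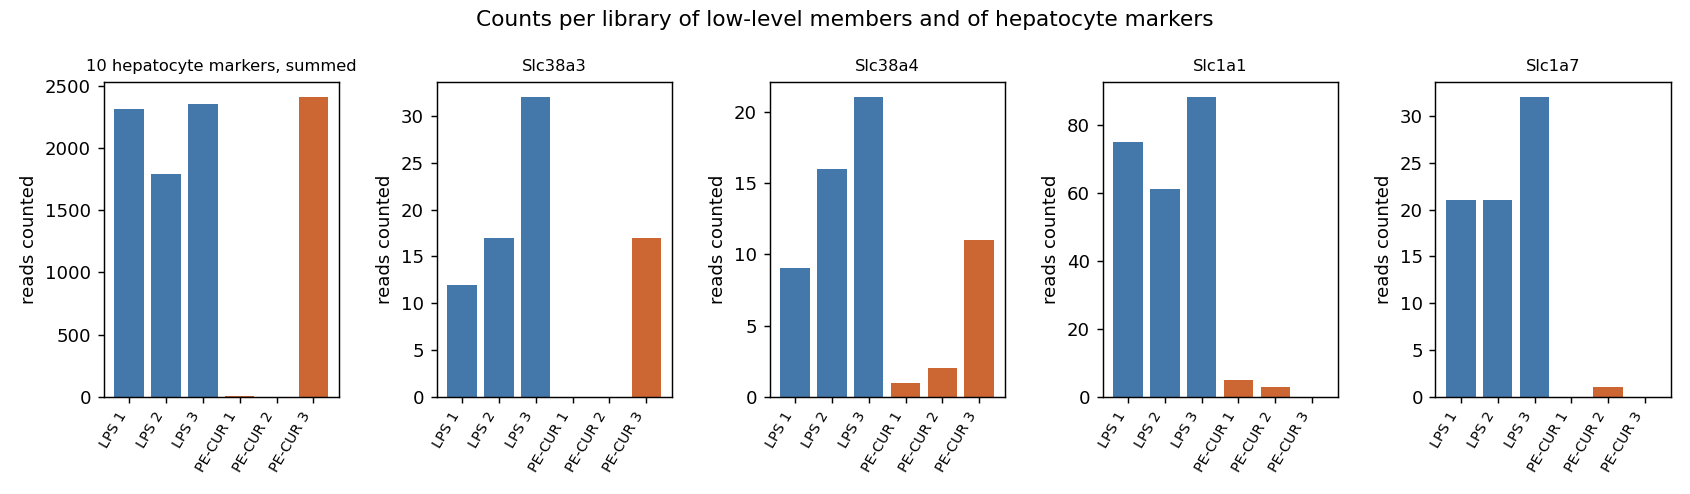
Counts per library (vertical axes) of the summed hepatocyte markers and of Slc38a3, Slc38a4, Slc1a1 and Slc1a7. "PE-CUR" means LPS plus PE-CUR: its replicate 3 has 17 counts of Slc38a3 and 11 of Slc38a4, and 0 of Slc1a1 and Slc1a7.

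Of the os genes, Slc7a6os (chr8:106200438-106210933), which codes for a relative of a yeast factor for the nuclear import of RNA polymerase II, rose from 19.9, 20.03 and 21.2 CPM to 29.5, 32.3 and 30.3 CPM. The groups did not overlap (log2 fold change 0.59, SE 0.08, adjusted p = 4.62e-05). It lies beside Slc7a6 and tells nothing about transport. The 2 non-coding os genes had at most 3 counts in any library. Other transporters that were not tested also had few counts: Slc3a1, the second heavy chain of the family, had 4 to 10 in LPS and 0 to 3 with PE-CUR, and Slc1a3, Slc36a2, Slc36a3, Slc43a1, Slc7a13 and Slc7a14 had at most 4.

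The enzymes and regulators that use or sense these amino acids were looked up in lists chosen with earlier results of these data known. Counts of calls in these lists are to be read against the 30.8% higher and 32.7% lower, and the median of -0.03, over all genes tested. Of 25 tested genes of the integrated stress response and of ATF4 target enzymes, 4 were higher and 14 lower, 72% called against 63.4% of all genes, and their median log2 fold change was -0.20. The stress response genes Ppp1r15a (GADD34), Ddit3 (CHOP), Trib3 and Atf5 fell, Ddit3 from 161.5 ± 10.8 to 47.9 ± 7.15 CPM (log2 fold change -1.75, adjusted p = 1.31e-06) and Ppp1r15a from 179 ± 20.3 to 45.0 ± 1.95 CPM (log2 fold change -1.99, adjusted p = 4.69e-08). Atf5 and Trib3 had log2 fold changes of -1.43 and -1.66, and Chac1, which degrades glutathione, of -1.08 (adjusted p = 1.82e-07, 2.46e-07 and 1.65e-06). In the same list 2 enzymes of serine and glycine synthesis had the smallest p among the higher calls: Shmt2 rose from 175 ± 12.9 to 416 ± 17.6 CPM (log2 fold change 1.25, adjusted p = 1.31e-07) and Psat1 from 299 ± 17.7 to 544 ± 7.25 CPM (log2 fold change 0.86, adjusted p = 4.93e-07). Of the other enzymes of serine synthesis, named after their values were seen, Psph rose by a log2 fold change of 0.22 (adjusted p = 0.00447) and Phgdh, the first enzyme of the route, did not pass (0.05, adjusted p = 0.418). Atf4 itself was at 543 ± 24.7 and 479 ± 28.04 CPM (log2 fold change -0.18, adjusted p = 0.0233), a call that held in the leave-one-out fits only without LPS plus PE-CUR replicate 3 (in the other 5, log2 fold change -0.18 to -0.11, adjusted p = 0.0581 to 0.196). Asparagine synthetase, Asns, did not pass (log2 fold change -0.10, adjusted p = 0.137), except in 4 alternatives (-0.15 to -0.13, adjusted p = 0.0395 to 0.0476).

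In the list of cystine use and glutathione synthesis 4 of 16 were higher and 7 lower, 68.8% called against 63.4% of all genes, with a median of -0.25. Gclm, the modifier subunit of the enzyme that limits glutathione synthesis, fell from 196 ± 17.3 to 78.1 ± 3.49 CPM (log2 fold change -1.33, adjusted p = 1.62e-07), beside the fall of Slc7a11. The catalytic subunit of that enzyme, Gclc, and glutathione synthetase, Gss, named after their values were seen, did not pass. Their log2 fold changes were -0.07 and -0.09 (adjusted p = 0.361 and 0.335). Ggt1, which splits extracellular glutathione, fell from 3.87 ± 0.450 to 0.111 ± 0.0628 CPM (adjusted p = 5.76e-07). It had 110, 131 and 154 counts in LPS and 3, 2 and 5 with PE-CUR. It thus passed the filter on low counts only through the LPS libraries and could only come out lower. Bach1, a repressor of NRF2 target genes, and Oplah, which recycles glutamate from a product of glutathione breakdown, had log2 fold changes of -1.02 and -1.59 (adjusted p = 6.43e-07 and 3.40e-05). Glutathione reductase, Gsr, and the NRF2 inhibitor Keap1 rose, with log2 fold changes of 0.55 and 0.47 (adjusted p = 1.53e-05 and 4.40e-05). Nfe2l2, which codes for NRF2, was at 139 ± 2.02 and 115 ± 15.3 CPM (log2 fold change -0.27, adjusted p = 0.0221), a call that was lost without LPS plus PE-CUR replicate 1 (-0.13, adjusted p = 0.0721) and without any LPS library (-0.24 to -0.22, adjusted p = 0.0842 to 0.101).

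Of 16 tested genes of glutamine, glutamate and branched-chain amino acid use, 10 were higher and 2 lower, 75% called against 63.4% of all genes, with a median of 0.28. The transaminases Got2 and Got1, glutamate dehydrogenase Glud1 and the branched-chain transaminase Bcat1 rose, by log2 fold changes of 0.60, 0.33, 0.62 and 0.55 (adjusted p = 2.90e-06, 0.000378, 6.61e-06 and 8.11e-06). Glutamine synthetase, Glul, fell from 52.2 ± 3.29 to 36.9 ± 0.958 CPM (log2 fold change -0.50, adjusted p = 9.23e-05), and Gpt had a log2 fold change of -0.43 (adjusted p = 0.0240). The Gpt call was lost without replicate 2 or 3 of either group (-0.43 to -0.28, adjusted p = 0.0642 to 0.160).

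Genes of arginine and polyamine use were called 5 higher and 5 lower of 14, 71.4% against 63.4% of all genes, with a median of -0.11. Spermidine synthase, Srm, rose from 40.5 ± 3.75 to 107 ± 6.50 CPM (log2 fold change 1.40, adjusted p = 2.04e-07), and Sms, Oaz1 and the nitric oxide synthase Nos2 had log2 fold changes of 0.78, 0.60 and 0.79 (adjusted p = 1.75e-06, 1.82e-05 and 0.000116). Spermine oxidase, Smox, fell from 232 ± 15.1 to 58.7 ± 4.48 CPM (log2 fold change -1.98, adjusted p = 2.53e-08). The enzymes that rebuild arginine from citrulline, Asl and Ass1, had log2 fold changes of -0.81 and -1.32 (adjusted p = 6.08e-06 and 0.0130), and the second call was lost without LPS replicate 3 (-1.17, adjusted p = 0.0551) and with replicate 3 alone in the PE-CUR group (-0.46, adjusted p = 0.192). Ornithine decarboxylase, Odc1, the most abundant of them, had 7550.3 ± 72.8 CPM in LPS and 6862 ± 221 CPM with PE-CUR, a difference that missed the threshold (log2 fold change -0.14, adjusted p = 0.0643) and passed it in 5 alternatives (-0.19 to -0.17, adjusted p = 0.00561 to 0.0263).

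For amino acid sensing by mTORC1, 7 of 34 tested genes were higher and 10 lower, with a median of 0.01. The share called, 50%, was below the 63.4% of all genes. In this list Fnip2, Castor2, Rragc and Rraga had log2 fold changes of -0.64, -1.09, -0.49 and -0.43 (adjusted p = 6.99e-06, 7.79e-05, 8.25e-05 and 0.000189). The kinase Mtor rose from 62.3 ± 3.796 to 91.6 ± 6.98 CPM (log2 fold change 0.56, adjusted p = 6.28e-05). The leucine sensors Sesn1 and Sesn2 were called in opposite directions, at 0.46 and -0.41 (adjusted p = 0.00728 and 0.000245), and Tfeb did not pass (0.31, adjusted p = 0.151). Among 13 other transporters of amino acids, peptides and related solutes 3 were higher and 7 lower, 76.9% called, with a median of -0.44. The 4 lower calls with the smallest p were lysosomal carriers, Mfsd12 (cysteine), Slc29a3 (nucleosides), Slc66a1 (cationic amino acids) and Slc17a5 (sialic acid), with log2 fold changes of -0.90, -1.15, -1.47 and -0.75 (adjusted p = 6.41e-07, 1.77e-06, 3.48e-06 and 9.55e-06). Among other lysosomal carriers of the list, named after their values were seen, the cystine exporter Ctns fell (-0.66, adjusted p = 1.82e-05), and the peptide and histidine carriers Slc15a3 and Slc15a4 did not pass (-0.14 and 0.04, adjusted p = 0.239 and 0.719). The plasma membrane carriers Slc16a10 (aromatic amino acids) and Slc6a6 (taurine) rose, with log2 fold changes of 0.49 and 0.34 (adjusted p = 0.000171 and 0.000512). The other tested Slc6 genes of the list, Slc6a8 and Slc6a9, also of the plasma membrane, fell (-1.57 and -0.44, adjusted p = 0.000153 and 0.000202). They were named after their values were seen, as was Slc44a2, the remaining higher call (0.21, adjusted p = 0.0361). Plasma membrane carriers of the list were thus called in both directions.

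**Figure D5:**
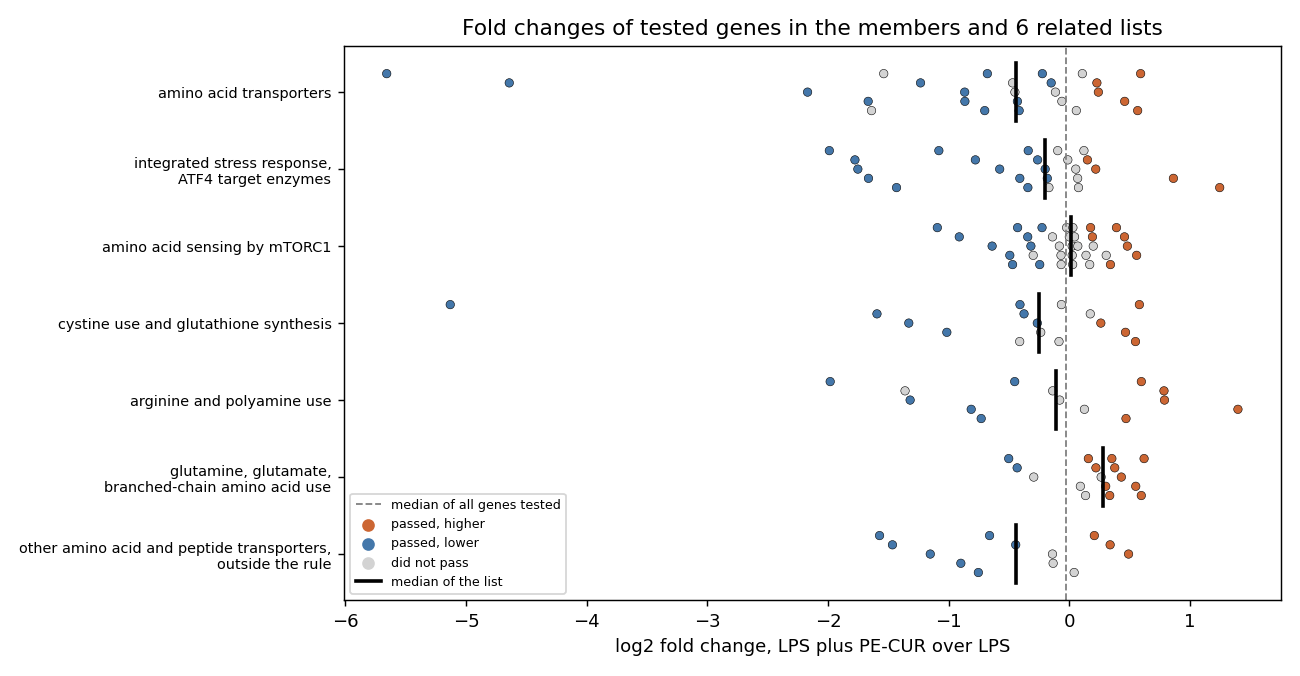
Log2 fold change (LPS plus PE-CUR over LPS) of each tested gene of the amino acid transporters and of 6 lists of related genes, with the median of each as a black line and that of all genes tested as a dashed line; colours mark genes that passed as higher or lower or did not pass. The medians run from -0.44 for the transporters and for the other carriers to 0.28 for glutamine, glutamate and branched-chain amino acid use.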

How the data were processed

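Libraries of TRIzol-extracted total RNA were built with a VAHTS Universal V6 kit, per the labels' protocols. The submitters' processing notes name the build mm10 and the tools DESeq2, fastp, HTSeq and SAMtools, without versions. Aligner, annotation and strand setting are not given in the sources used for this work. The authors deposited whole-number counts per gene symbol and FPKM values for the same 6 libraries. The deposited FPKM values equal count over length and library total, with 1 length per gene, in 100% of 105337 values (tolerance 0.0001), so they are no second measurement.

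Counts were tested in R 4.3.3 with edgeR 4.0.16 (filterByExpr, TMM factors of 0.964 to 1.03, robust quasi-likelihood fit with the group alone, two-sided) over 13014 genes. CPM values use the TMM factors, except for the markers of all cell types, macrophages included, and the values per kilobase of principal transcript, which use the library total alone. Errors are SD over 3 libraries. Depth limits rare genes: 3 counts are 0.0850 to 0.105 CPM. The alternatives used DESeq2 1.42.0 and limma 3.58.1, other scalings and filters, a term for the replicate number, leaving out each library and, added after seeing the data, replicate 3 of LPS plus PE-CUR as the only library of its group and principal transcript lengths. On simulated data with 12817 genes, the test found 67.2% of 67 genes with a true 1.5-fold change, 86.6% of 67 at 2-fold and 97.0% of 66 at 4-fold, and 8 of 175 calls were unchanged genes. Few genes were changed in the simulation, and each took the spread of the fitted trend. In the data 63.4% of genes were called, so these rates need not hold for this comparison. Library pairs within a group differed by more than sampling noise (chi-square per degree of freedom of at least 9.53).

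The members, the lists and the tests were chosen with earlier results of these data known. Genes called with a mean of at least 5 CPM were given in every library, other tested members by means or counts, and each list by up to 4 called genes in the direction most of its calls took, by smallest p, and up to 2 in the other, and further genes are given whatever their result, of which 1 is not reported here.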

Additional observations from a re-analysis of the deposited data

How the results depend on the processing

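Of the 26 tested genes, 16 kept their direction and their side of the threshold in all alternatives that tested them, and 10 changed in at least 1. Members called higher numbered 3 to 6 and lower 11 to 14. The low count, 3 against 5, came from limma on log2(FPKM + 1) without a filter, where the stress response list also had 2 higher genes against 4. The mTORC1 list had 4 higher genes with limma on FPKM at either pseudocount (1 and 0.1), 2 without a filter, and 3 with replicate 3 of LPS plus PE-CUR as the only library of its group, against 7. The list of glutamine, glutamate and branched-chain amino acid use had 1 lower gene against 2 with edgeR without a filter and with that replicate alone, and 1 to 2 when each library was left out. The causes were not tested. With that replicate alone, Slc38a2 and Slc38a3, called in neither fit, changed sign, to 0.0185 and 0.10; a lone library was assumed to vary like the other group. The replicate block gave 5 higher and 13 lower members, as without it (all genes: 3708 higher and 3953 lower), but Slc3a2 lost its call (adjusted p = 0.0654) and Slc38a4 gained one (adjusted p = 0.0495). Replicate numbers do not pair the libraries: deviations of same-numbered libraries correlated at -0.10, -0.18 and -0.05. Over all settings 40.7% to 52.6% of calls among all genes were higher, against 48.5%. With edgeR without a filter the median log2 fold change of all genes was -0.10. Edge cases matter there: that edgeR fit took in all 37 members, also those with few counts, and called 14 lower against 13. Among the 26 it lost Slc3a2 and gained Slc38a4, so its lower calls include a gene not tested in the main fit. A change in genes with a few counts per library, such as Slc7a2, is poorly measured at this depth.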
